A study of Mus musculus with 23 samples.

Results

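Diplotene spermatocytes were compared with mid-pachytene spermatocytes across all genes on the arrays of sorted mouse testis cells, by taking the 2 arrays titled as diplotene and the 2 titled as mid-pachytene, 4 of the 23 arrays in the series. Both fractions came from testes of male C57BL6xDBA2J F1 mice aged 10 to 16 weeks, with no mutation named, and were separated by fluorescence-activated sorting on the DNA dye Hoechst 33342. The labels call the arrays biological replicates but do not say whether they came from separate animals, so the p-values below measure the spread between these arrays. The other 16 wild-type arrays of the series, from spermatogonia to round spermatids, entered the fit as further fractions, 20 arrays in all. The spread was thus estimated from every fraction with replicates, to which the single early and single late pachytene arrays add nothing. The 3 Spo11-/- arrays were not analysed here.

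Pachytene is the stage of meiotic prophase at which homologous chromosomes are fully paired along the synaptonemal complex and recombination intermediates mature into crossovers, while the unpaired X and Y chromosomes are packed into a transcriptionally silent sex body. At diplotene the synaptonemal complex comes apart, the homologues remain joined at chiasmata, and the cell prepares for the meiotic divisions, having already made many of the transcripts that the spermatid will need for the acrosome and the flagellum. Spermatocytes at both stages hold large amounts of RNA, so a fraction is read here as a level per unit of labelled RNA and not per cell.

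Levels are given as log2 of the deposited probe set intensity plus 1, with 1 probe set for each gene, and changes as fitted log2 differences, diplotene minus mid-pachytene, with the standard error and the Benjamini-Hochberg adjusted p of limma (n = 2 arrays each). A gene was taken as higher or lower where the adjusted p was below 0.05 and the change at least 1 on the log2 scale, and a level below 4 was treated as not above background. Of 13087 genes tested, 2812 passed, which is 21.5%. Of these, 913 were higher in diplotene (6.98%) and 1899 were lower (14.5%). The lower genes also moved further, with a median change of -2.16 against 1.66 for the higher genes, and 408 of the lower genes against 31 of the higher genes changed by at least 3 on the log2 scale. These sizes are fitted values and rest in part on levels not above background. Every diplotene array was below 4 for 292 of the lower genes, and every mid-pachytene array for 163 of the higher genes. The median over all genes tested was -0.01. The diplotene and mid-pachytene arrays did not overlap for 7877 genes, 60.2% of those tested, and for 2810 of the 2812 that passed.

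The number of calls depended on the arrays. Fitted on the 4 arrays alone, limma passed 0 genes, with 4023 at an unadjusted p below 0.05, against 4460 in the fit over 20 arrays. Leaving out mid-pachytene array 1 left 434 higher and 905 lower genes, and leaving out diplotene array 2 left 483 higher and 934 lower genes, with the lone remaining array of the fraction then assumed to vary like those of the other fractions. The counts without mid-pachytene array 2 were 711 higher and 1868 lower, and those without diplotene array 1 were 678 higher and 1843 lower. The 2 arrays most unlike each other were diplotene array 2 and mid-pachytene array 1, with a correlation of 0.84 across genes. The correlation was 0.97 between the diplotene arrays and 0.96 between the mid-pachytene arrays.

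**Figure D1:**
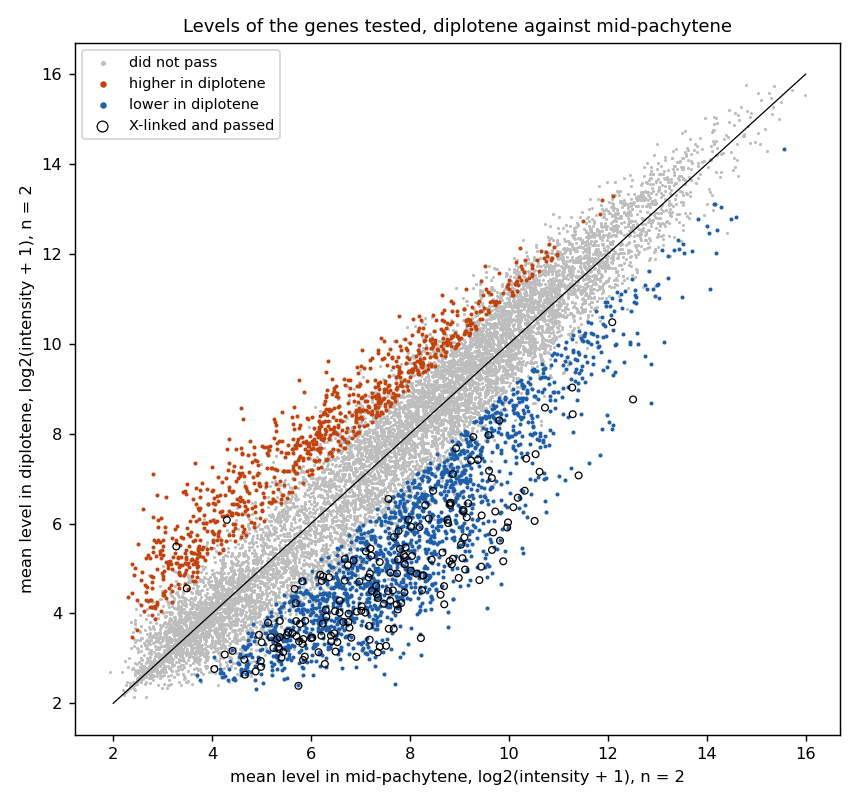
Each point is a gene, with its mean level in the 2 diplotene arrays on the vertical axis and in the 2 mid-pachytene arrays on the horizontal axis, both as log2(intensity + 1). Orange points are the genes higher in diplotene, blue points the genes lower in diplotene, grey points the genes that did not pass, and black rings mark X-linked genes that passed, nearly all of them below the diagonal.

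Marker lists set the fractions apart in their content of early transcripts. The 19 pachytene markers tested had median levels of 13.20 and 13.18 in the diplotene arrays and 12.05 and 12.82 in the mid-pachytene arrays. These lay above the 8.98 to 9.52 of the spermatogonia arrays. The round spermatid arrays had 12.87 to 13.47, so the list does not tell meiotic prophase from later stages. None of the markers passed between the fractions, with 2 at an unadjusted limma p below 0.05. Of all 13087 genes tested 21.5% passed, and 4460 were at an unadjusted limma p below 0.05. Piwil1, the PIWI protein loaded with pachytene piRNAs, measured 13.49 and 13.18 in diplotene, against 13.51 and 13.70 in mid-pachytene. Hspa2, the testis HSP70 of pachytene spermatocytes, measured 14.11 and 13.93 in diplotene, against 13.70 and 13.96 in mid-pachytene. Neither gene passed. The arrays of the fractions overlapped for Hspa2 and did not for Piwil1, where 13.49 in diplotene lay just below 13.51 in mid-pachytene. Arrays did not overlap for 60.2% of all genes tested.

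The 26 spermatogonial markers tested had median levels of 5.05 and 4.60 in the diplotene arrays, against 8.71 and 8.12 in the mid-pachytene arrays and 8.24 to 9.83 in the spermatogonia arrays. Of these markers 17 were lower in diplotene and none was higher, with a median change of -3.21, and 11 passed without mid-pachytene array 1 and 11 without diplotene array 2. The 17 lower markers were 65.4% of those tested, against 14.5% of all genes tested. Zbtb16, the zinc finger factor that maintains spermatogonial stem cells, measured 4.43 and 3.80 in diplotene, against 9.73 and 9.38 in mid-pachytene. Sall4, a zinc finger factor of undifferentiated germ cells, measured 6.05 and 4.73 in diplotene, against 10.35 and 9.48 in mid-pachytene. The mid-pachytene levels of both genes lay within 1 log2 unit of their spermatogonia means, 9.34 and 10.16. In bulk samples fewer cells of a type and less RNA per cell cannot be told apart, and the part of such transcripts in the falls described below was not tested.

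Of the 20 leptotene and zygotene markers, 6 were lower in diplotene and none was higher (median -0.76). The lower share was 30%, against 14.5% of all genes tested, of which 6.98% were higher. In this list 2 were lower without mid-pachytene array 1 or without diplotene array 2. Stra8, the retinoic acid target that starts meiosis, measured 8.19 and 6.27 in diplotene, against 11.59 and 10.91 in mid-pachytene, a change of -4.02 ± 1.03 (adjusted p = 0.011; 0.088 without mid-pachytene array 1 and 0.13 without diplotene array 2). The 37 spermatid markers had medians of 9.32 and 9.73 in diplotene and 9.14 and 9.70 in mid-pachytene, with a median change of -0.01. Of these markers 2.7% were lower and none was higher, against 14.5% and 6.98% of all genes tested. The 1 spermatid marker that passed was Prm2, a protamine that packs sperm DNA, at 12.27 and 11.78 in diplotene, against 13.80 and 13.29 in mid-pachytene, and its fall of -1.52 ± 0.51 was lost without any 1 of the 4 arrays (adjusted p 0.063 to 0.24).

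Among somatic cell markers, calls were made in the peritubular and stromal list alone. No marker passed among 16 of Sertoli cells, 8 of Leydig cells, 21 of leukocytes, 7 of endothelium and 3 of erythrocytes. Of these, 0 had an unadjusted limma p below 0.05, against 4460 of all 13087 genes tested, of which 21.5% passed. Among the widest differences in those lists, Ctsl, a lysosomal protease made by Sertoli cells, changed by -1.55 ± 0.81 (adjusted p = 0.19), Cyp17a1, a steroid-making enzyme of Leydig cells, by -1.13 ± 0.84 (adjusted p = 0.38), and Cx3cr1, a chemokine receptor of macrophages, by 0.74 ± 0.49 (adjusted p = 0.31). Of 15 peritubular and stromal markers 4 were lower in diplotene (26.7%, against 14.5% of all genes tested). All 15 lay below 0, with a median change of -0.61, where 6621 of all 13087 genes tested lay below 0. Acta2, the smooth muscle actin of peritubular myoid cells, measured 7.56 and 7.57 in diplotene, against 10.59 and 10.15 in mid-pachytene (-2.80 ± 0.74; adjusted p = 0.012), although another probe set of Acta2 above background changed by 1.28. Tagln, a smooth muscle protein, measured 5.88 and 6.22 in diplotene, against 8.20 and 8.22 in mid-pachytene, and Myh11, smooth muscle myosin, 5.90 and 5.38 in diplotene, against 7.55 and 7.04 in mid-pachytene. The count of 4 became 1 under quantile normalization or without either mid-pachytene array, 2 without diplotene array 1 and 0 without diplotene array 2.

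The 12 largest rises were of genes with varied known roles, from ion channels to the flagellum, and 7 of them passed without each of the 4 arrays in turn. Predicted gene names and genes whose arrays overlapped were left out of this ranking, and the largest rise among all genes that passed was 4.31. Thsd7b, a gene for a protein with thrombospondin domains, measured 8.51 and 8.62 in diplotene, against 4.90 and 4.29 in mid-pachytene, a 15.7-fold rise (3.97 ± 0.52; adjusted p = 0.00011). Trpv1, the cation channel opened by heat and capsaicin, measured 6.44 and 6.82 in diplotene, against 2.85 and 2.93 in mid-pachytene, with both mid-pachytene arrays below 4, so that it was at least 2.63 higher on the log2 scale (adjusted p = 0.00043). Htr5b, a serotonin receptor, measured 7.04 and 7.64 in diplotene, against 3.21 and 4.11 in mid-pachytene (3.68 ± 0.53; adjusted p = 0.00021). The diplotene arrays of these 3 genes lay above both mid-pachytene arrays by more than the spread within either fraction.

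Gdf9, a growth factor of the TGF-beta family best known from the oocyte, measured 7.51 and 8.24 in diplotene, against 4.06 and 4.64 in mid-pachytene (3.53 ± 0.43; adjusted p = 6.8e-05). Prdm8, a zinc finger protein of the PR domain family, measured 7.19 and 6.56 in diplotene, against 3.54 and 3.45 in mid-pachytene, at least 2.87 higher (adjusted p = 3.6e-05). Smtnl1, a smoothelin-like protein of muscle, measured 6.11 and 6.04 in diplotene, against 2.88 and 2.92 in mid-pachytene, at least 2.08 higher (adjusted p = 3.5e-05). For Prdm8 and Smtnl1 both mid-pachytene arrays lay below background and the fractions were far apart. Ndufa4l2, a mitochondrial protein related to a respiratory chain subunit, measured 7.76 and 7.56 in diplotene, against 3.50 and 5.11 in mid-pachytene (3.36 ± 0.60; adjusted p = 0.00095).

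The other 5 of these rises depended on an array. Slc25a54, of the mitochondrial carrier family, rose by 3.45 ± 0.95 (adjusted p = 0.015), Dnaic2, an intermediate chain of axonemal dynein, by 3.29 ± 0.75 (adjusted p = 0.0051), and Rnase10, a ribonuclease A relative known from the epididymis, by 3.19 ± 0.85 (adjusted p = 0.013). Without mid-pachytene array 1 their adjusted p became 0.20, 0.10 and 0.21, and without diplotene array 2 0.15, 0.058 and 0.15. Gem, a small GTPase that inhibits calcium channels, rose by at least 2.70 (adjusted p = 0.029) and was lost without mid-pachytene array 1 (0.18), mid-pachytene array 2 (0.058) or diplotene array 2 (0.23). Bex6, of the Bex family, rose by 3.25 ± 0.73 (adjusted p = 0.0048) and was lost without diplotene array 1 (0.054).

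All 12 of the largest falls passed without each of the 4 arrays in turn. In spermatogonia 11 of the genes averaged 7.98 to 12.21, and Erap1 7.49, where the medians of all genes tested were 7.66 to 7.72. Zbtb16 had the largest, -5.44 ± 0.89 (adjusted p = 0.00052), with its values given above. Lin28a, the RNA-binding protein that blocks let-7 processing, measured 5.45 and 3.85 in diplotene, against 10.30 and 9.40 in mid-pachytene (-5.20 ± 0.92; adjusted p = 0.00091). Sohlh1, a helix-loop-helix factor of differentiating spermatogonia, measured 3.05 and 3.02 in diplotene, against 8.36 and 7.23 in mid-pachytene, at least 3.79 lower (adjusted p = 7.1e-06). Bnc1, a zinc finger factor, measured 4.82 and 3.23 in diplotene, against 9.14 and 8.41 in mid-pachytene (-4.75 ± 0.59; adjusted p = 7.0e-05). In each of these genes both diplotene arrays lay more than 3 log2 units below both mid-pachytene arrays.

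Cenpa, the histone H3 variant that marks centromeres, measured 6.65 and 4.04 in diplotene, against 10.78 and 9.81 in mid-pachytene (-4.95 ± 0.67; adjusted p = 0.00014). Mcm2, a subunit of the replicative helicase, measured 5.75 and 4.03 in diplotene, against 9.82 and 9.51 in mid-pachytene (-4.78 ± 0.72; adjusted p = 0.00030). Psme1, a subunit of the PA28 activator of the proteasome, measured 6.90 and 4.02 in diplotene, against 10.84 and 9.69 in mid-pachytene (-4.80 ± 0.83; adjusted p = 0.00076). In these 3 genes diplotene array 1 was higher than diplotene array 2 by more than 1 log2 unit, and still below both mid-pachytene arrays.

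Erap1, which trims peptides for MHC class I, measured 2.44 and 2.43 in diplotene, against 8.16 and 7.26 in mid-pachytene and was at least 3.71 lower (adjusted p = 0.00027). Sema4d, a semaphorin, measured 2.73 and 2.59 in diplotene, against 7.93 and 7.01 in mid-pachytene and was at least 3.47 lower (adjusted p = 2.0e-05). Pramel13, of the PRAME family, was at least 4.23 lower (adjusted p = 9.8e-05), Trnp1, a nuclear protein of neural progenitors, changed by -5.06 ± 0.65 (adjusted p = 9.0e-05), and Dusp9, an X-linked MAP kinase phosphatase, by -4.77 ± 0.49 (adjusted p = 2.0e-05). Erap1, Zbtb16, Cenpa, Mcm2 and Dusp9 had other probe sets above background, and each of those was also lower in mean, with the smallest changes -1.54 for Erap1 and -1.77 for Zbtb16.

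**Figure D2:**
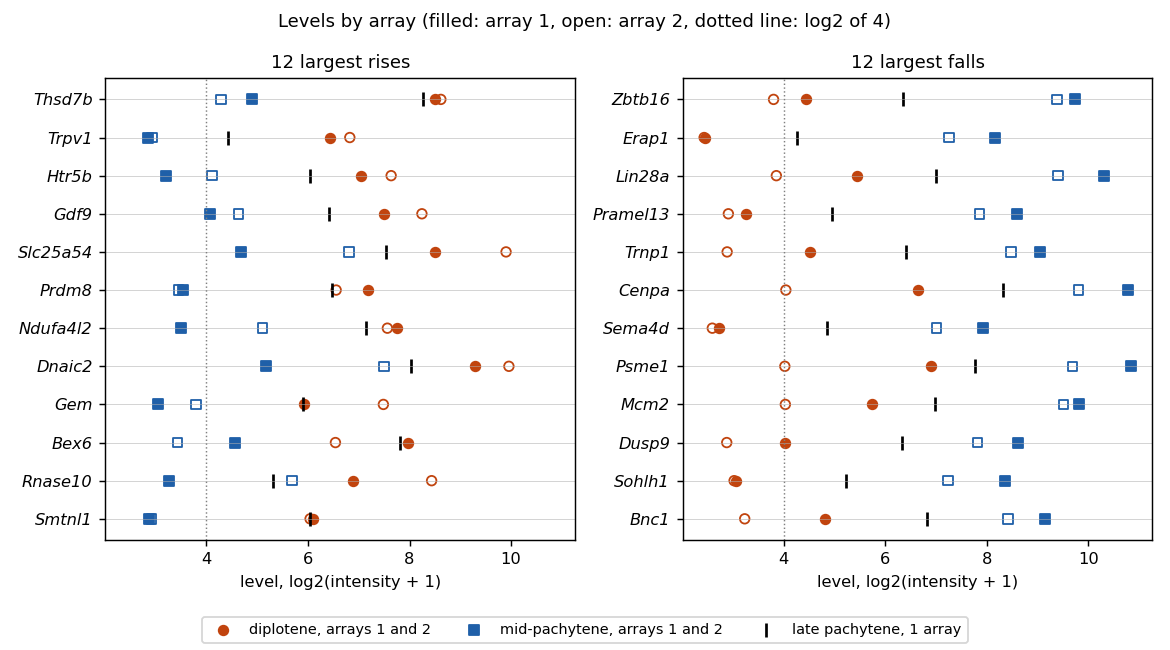
Levels as log2(intensity + 1) of the 12 largest rises (left) and the 12 largest falls (right), with orange circles for the 2 diplotene arrays, blue squares for the 2 mid-pachytene arrays and a black bar for the single late pachytene array. The genes were chosen among those that passed and whose orange and blue symbols do not overlap, leaving out predicted gene names. The late pachytene bar lies between the symbols or beside the diplotene circles for all genes but Rnase10. There it lies between the blue squares.

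The promoters of 4 of the genes are shown because they stand for both directions of change and for the genes of chromatin and replication described below. The sequences are those of RefSeq on GRCm38.p6, 300 bases around the start of the gene, in the direction of transcription, and the capitals mark every match on either strand to the CCAAT box CCAAT, the core TGACG of the cAMP response element and the cell cycle homology region TTTGAA. The Prdm8 promoter, chr5:98180619-98180918 on the plus strand, and the H1f6 promoter, chr13:23695561-23695860 on the plus strand, belong to genes that rose. The Cenpa promoter, chr5:30666636-30666935 on the plus strand, and the Mcm2 promoter, chr6:88898731-88899030 on the minus strand, belong to genes that fell.
Prdm8: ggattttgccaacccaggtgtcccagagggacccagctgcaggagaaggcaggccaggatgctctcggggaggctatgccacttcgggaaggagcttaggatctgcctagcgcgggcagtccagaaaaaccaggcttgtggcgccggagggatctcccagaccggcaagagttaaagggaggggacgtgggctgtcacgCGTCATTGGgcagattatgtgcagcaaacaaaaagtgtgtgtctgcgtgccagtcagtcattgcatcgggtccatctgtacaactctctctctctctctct
H1f6: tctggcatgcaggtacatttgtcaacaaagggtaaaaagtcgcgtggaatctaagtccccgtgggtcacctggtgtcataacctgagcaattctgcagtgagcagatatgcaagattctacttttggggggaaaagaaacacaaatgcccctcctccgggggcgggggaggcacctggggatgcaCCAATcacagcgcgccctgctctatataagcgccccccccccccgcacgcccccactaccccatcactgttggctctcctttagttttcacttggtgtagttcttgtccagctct
Cenpa: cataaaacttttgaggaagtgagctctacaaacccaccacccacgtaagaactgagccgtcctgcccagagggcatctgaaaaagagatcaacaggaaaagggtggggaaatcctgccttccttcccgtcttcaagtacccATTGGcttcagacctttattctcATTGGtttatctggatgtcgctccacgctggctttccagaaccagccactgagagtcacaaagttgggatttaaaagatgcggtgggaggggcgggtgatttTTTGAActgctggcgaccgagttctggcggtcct
Mcm2: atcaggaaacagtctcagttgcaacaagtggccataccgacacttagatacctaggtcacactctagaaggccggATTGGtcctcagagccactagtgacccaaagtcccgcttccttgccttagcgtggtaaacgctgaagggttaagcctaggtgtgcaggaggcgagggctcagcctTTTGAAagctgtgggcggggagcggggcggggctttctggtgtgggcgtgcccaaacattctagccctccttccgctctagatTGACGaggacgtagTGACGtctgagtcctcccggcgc
In Prdm8 a CCAAT box and a TGACG core overlap and are printed as 1 run of capitals. The promoters of the genes that changed held the motifs at shares near those of all genes. Among 10639 tested genes with a promoter entry, the CCAAT box was in 35.8% of 737 promoters of higher genes, 37.7% of 1582 promoters of lower genes and 38.9% of all. TGACG was in 26.2%, 31.9% and 30.9% in the same order, and TTTGAA in 10.7%, 9.8% and 11.9%. The full cAMP response element TGACGTCA was in 2.44% of the promoters of higher genes, 2.72% of those of lower genes and 3.16% of all. The TATA box TATAAA, the MYB site AACNGTT and the X-box sequence GTTGCCA were likewise in 9.09%, 4.07% and 3.66% of the promoters of higher genes, 6.38%, 2.59% and 3.1% of those of lower genes, and 7.31%, 3.54% and 4.49% of all. In base composition, the median promoter held 17 CpG dinucleotides among the higher genes and 24 among the lower genes, against 20 over all genes, with a GC content of 59.0%, 63.3% and 60.3%.

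Cell division genes moved in both directions. Of 32 cyclins, cyclin-dependent kinase regulators and M-phase entry genes 1 was higher and 7 were lower in diplotene (3.12% and 21.9%, against 6.98% and 14.5% of all genes tested), with a median change of -0.35, or -0.10 with genes below background at their bound. Ccna2, the S-phase and mitotic cyclin A, measured 6.89 and 7.04 in diplotene, against 10.59 and 10.46 in mid-pachytene (-3.56 ± 0.35; adjusted p = 2.0e-05). Ccnd1, a D-type cyclin of the G1 phase, measured 5.43 and 5.34 in diplotene, against 8.16 and 7.87 in mid-pachytene (-2.63 ± 0.53; adjusted p = 0.0023), and Ccnd2, another D-type cyclin, 5.22 and 3.97 in diplotene, against 9.04 and 7.56 in mid-pachytene (-3.71 ± 0.97; adjusted p = 0.012). Ccna1 and Cdk1 did not pass. Ccna1, the germline cyclin A needed for the first meiotic division in males, measured 11.09 and 12.26 in diplotene, against 8.92 and 10.59 in mid-pachytene (1.92 ± 0.89; adjusted p = 0.14), and Cdk1, the kinase that drives M phase, 10.24 and 11.19 in diplotene, against 9.81 and 10.42 in mid-pachytene (0.61 ± 0.44; adjusted p = 0.37). The Ccna1 values of the fractions did not overlap, as for 60.2% of all genes tested, but each fraction's own arrays differed by more than 1 log2 unit. The 1 gene that rose in the list was Plk1, a polo kinase of M-phase entry, at 9.55 and 10.47 in diplotene, against 8.55 and 9.07 in mid-pachytene (1.20 ± 0.40; adjusted p = 0.040), and it did not pass without mid-pachytene array 1 (0.26) or diplotene array 2 (0.35). The lower count was 4 without diplotene array 2, and Ccnd2 then had an adjusted p of 0.12, against 0.13 without mid-pachytene array 1.

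Among 57 genes of the spindle, kinetochore and chromosome segregation, 2 were higher and 5 were lower (3.51% and 8.77%, both below the 6.98% and 14.5% of all genes tested), with a median of 0.10 (0.041 under quantile normalization). Aurkc, the Aurora kinase of meiotic germ cells, measured 10.11 and 10.47 in diplotene, against 8.20 and 8.76 in mid-pachytene (1.81 ± 0.53; adjusted p = 0.022). Cdc27, a subunit of the anaphase-promoting complex, rose by 1.30 ± 0.31 (adjusted p = 0.0070). Anapc1, another subunit of that complex, measured 8.71 and 8.03 in diplotene, against 10.40 and 10.16 in mid-pachytene. It fell by 1.91 ± 0.30 (adjusted p = 0.00042), although its 3 other probe sets above background changed by only -0.79 to -0.58. Sgo1, the shugoshin that guards centromeric cohesin in mitosis, measured 5.35 and 3.17 in diplotene, against 7.46 and 6.02 in mid-pachytene (-2.48 ± 0.67; adjusted p = 0.014). Cenpa, listed here too, was the largest fall of the list. Without mid-pachytene array 1 or diplotene array 2 the counts were 0 higher and 2 lower, with Aurkc at an adjusted p of 0.17 and 0.14, Cdc27 at 0.081 and 0.063 and Sgo1 at 0.18 and 0.23 in those fits.

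Of 25 genes of the synaptonemal complex, the chromosome axis and cohesin none was higher and 8 were lower, with a median of -0.64. The lower share was 32%, against 14.5% of all genes tested. Cohesin subunits that mitotic cells also use were among the larger changes. Rad21, the mitotic kleisin, measured 8.12 and 7.28 in diplotene, against 11.02 and 10.24 in mid-pachytene (-2.93 ± 0.40; adjusted p = 0.00015). Its 2 other probe sets above background changed by -2.64 and -0.07. Stag2, an X-linked cohesin subunit of somatic cells, measured 5.92 and 5.76 in diplotene, against 7.94 and 7.60 in mid-pachytene (-1.93 ± 0.38; adjusted p = 0.0020), and Smc1a, the X-linked SMC1 of mitotic cohesin, 4.96 and 3.14 in diplotene, against 6.70 and 6.27 in mid-pachytene (-2.43 ± 0.58; adjusted p = 0.0065). Other probe sets of Stag2 and Smc1a changed by -1.20 and -0.30. Trip13, the ATPase that strips HORMAD proteins from synapsed axes, measured 9.30 and 8.56 in diplotene, against 11.48 and 10.52 in mid-pachytene (-2.07 ± 0.45; adjusted p = 0.0038).

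Sycp1, the transverse filament of the synaptonemal complex, measured 11.36 and 10.98 in diplotene, against 12.11 and 12.57 in mid-pachytene and fell by 1.17 ± 0.37 (adjusted p = 0.031), a call lost without mid-pachytene array 1 (0.062), mid-pachytene array 2 (0.17) or diplotene array 2 (0.19). Sycp3, the axial element, measured 13.44 and 13.19 in diplotene, against 13.61 and 13.46 in mid-pachytene, and did not pass (-0.22 ± 0.27; adjusted p = 0.63). Leaving out mid-pachytene array 1 or diplotene array 2 reduced the 8 lower genes to 3, with Smc1a at 0.066 and 0.13 and Trip13 at 0.069 and 0.060, and another probe set of Trip13 changed by 0.13.

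Of 7 genes of break formation 2 were lower (28.6%, against 14.5% of all genes tested) and none was higher. The median was -0.76 (-0.44 under quantile normalization). Rec114, an accessory protein of the break machinery, measured 6.36 and 4.41 in diplotene, against 8.99 and 7.97 in mid-pachytene (-3.09 ± 0.52; adjusted p = 0.00066), and Hells, a chromatin remodeller that opens recombination hotspots, 9.10 and 8.84 in diplotene, against 11.64 and 11.16 in mid-pachytene (-2.43 ± 0.32; adjusted p = 0.00010). Another probe set of Rec114 changed by -0.29, and 2 of Hells by -1.01 and -0.04. Spo11, the enzyme that makes the breaks, measured 11.23 and 13.0 in diplotene, against 10.79 and 12.76 in mid-pachytene: array 2 was higher than array 1 by more than 1 log2 unit in both fractions, and the fractions overlapped (0.34 ± 0.88; adjusted p = 0.85). Prdm9, the histone methyltransferase that places hotspots, was not above background in either fraction.

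Of 24 strand exchange genes 1 was higher and 7 were lower (4.17% and 29.2%, against 6.98% and 14.5% of all genes tested). The median was -0.27, or -0.14 with genes below background at their bound. Dmc1, the meiotic recombinase, measured 3.73 and 3.36 in diplotene, against 6.30 and 6.89 in mid-pachytene and was at least 2.60 lower (adjusted p = 0.00019). Brca1, which acts in repair and on unsynapsed chromosomes, measured 6.42 and 7.12 in diplotene, against 9.46 and 9.01 in mid-pachytene (-2.47 ± 0.42; adjusted p = 0.00063), and Rpa2, a subunit of the protein that coats single-stranded DNA, 7.78 and 7.59 in diplotene, against 10.03 and 10.14 in mid-pachytene (-2.41 ± 0.55; adjusted p = 0.0053). Other probe sets above background changed by -0.67 for Dmc1, -0.97 and -0.22 for Brca1 and -1.64 for Rpa2. The 1 member that rose was Nbn, of the end-resection complex, by 1.01 ± 0.34 (adjusted p = 0.043), and it passed in none of the 4 fits that left out an array (adjusted p 0.063 to 0.24). The lower count was 3 without mid-pachytene array 1 or without diplotene array 2.

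The 22 crossover genes were split, with 3 higher (13.6%) and 5 lower (22.7%) and a median of 0.22. Of all genes tested 6.98% were higher and 14.5% lower. The 3 that rose act on joint molecules: Mus81, a nuclease that resolves them, measured 8.36 and 7.60 in diplotene, against 6.38 and 6.16 in mid-pachytene and rose by 1.71 ± 0.44 (adjusted p = 0.010), Slx4, the scaffold for such nucleases, by 1.34 ± 0.43 (adjusted p = 0.035), and Top3a, a topoisomerase that dissolves them, by 1.33 ± 0.34 (adjusted p = 0.011). The falls included Tex11, an X-linked gene of the crossover pathway, at 5.88 and 3.80 in diplotene, against 9.30 and 7.25 in mid-pachytene (-3.43 ± 0.75; adjusted p = 0.0039), and Mcm8, a helicase of recombination repair, at 4.17 and 2.79 in diplotene, against 7.50 and 6.13 in mid-pachytene (-3.33 ± 0.68; adjusted p = 0.0025). Pms2, a mismatch repair protein, measured 5.13 and 3.50 in diplotene, against 7.77 and 6.48 in mid-pachytene (-2.82 ± 0.61; adjusted p = 0.0036). Mlh3, the MutL protein found at crossover sites, measured 9.95 and 9.45 in diplotene, against 9.62 and 9.33 in mid-pachytene and did not pass (0.22 ± 0.30; adjusted p = 0.66). The counts higher and lower were 1 and 2 without mid-pachytene array 1, 0 and 6 without mid-pachytene array 2, 1 and 5 without diplotene array 1, and 1 and 1 without diplotene array 2. Tex11 had adjusted p of 0.080 without mid-pachytene array 1 and 0.080 without diplotene array 2, and Pms2 0.066 and 0.072. Slx4 passed in none of the 4 fits (adjusted p 0.053 to 0.22), Mus81 not without mid-pachytene array 2 (0.054) or diplotene array 1 (0.094), and Top3a only without diplotene array 1 (0.026; 0.026 to 0.087 over the 4).

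Of 28 genes of ATR and ATM signalling and sex chromosome silencing none was higher and 7 were lower, a median of -0.35. The lower share was 25%, against 14.5% of all genes tested. Scml2, the X-linked Polycomb protein that sets the chromatin of the sex body, measured 6.06 and 4.02 in diplotene, against 9.71 and 9.17 in mid-pachytene (-4.40 ± 0.51; adjusted p = 4.6e-05). Atm, the kinase that answers double-strand breaks, measured 5.57 and 4.56 in diplotene, against 9.10 and 8.29 in mid-pachytene (-3.63 ± 0.56; adjusted p = 0.00036), and Chek2, one of its targets, 5.09 and 3.77 in diplotene, against 7.58 and 5.82 in mid-pachytene (-2.27 ± 0.53; adjusted p = 0.0061). Both Scml2 and Atm passed without each array in turn, while Chek2 did not without mid-pachytene array 1 (0.12) or diplotene array 2 (0.11), and the count of 7 became 3 in both of those fits.

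Among X-linked genes the changes were nearly all falls. Of 419 X-linked genes tested, 174 were lower in diplotene (41.5%) and 3 were higher (0.716%), against 1717 lower (13.6%) and 889 higher (7.06%) of 12586 autosomal genes. The median change was -1.02 on the X chromosome, or -0.77 with genes below background at their bound, and 0.00 on the autosomes. The share of lower genes on single autosomes ran from 11.4% on chromosome 12 to 15.1% on chromosome 4. Of the 7 Y-linked genes tested 4 were lower and none was higher. Without mid-pachytene array 1 there were 83 lower X-linked genes, and without diplotene array 2 there were 93. The shares were also compared among genes of like level. Of the genes at a mean mid-pachytene level of 6 to 8, 66.7% of 108 X-linked and 22.1% of 2855 autosomal genes were lower, and at a level of 8 to 10, 80.3% of 66 X-linked and 17.4% of 3257 autosomal genes were.

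The median X-linked level stood 2.85 and 3.48 below the autosomal median in the diplotene arrays, against 1.72 and 2.38 in the mid-pachytene arrays, on the log2 scale. The difference averaged -3.17 ± 0.45 in diplotene and -2.05 ± 0.47 in mid-pachytene (SD, n = 2 each), -1.11 between them, and an exact two-sided permutation test gave p = 0.333, the smallest that 2 against 2 arrays allow. The value was -0.15 with no filter on low levels and -0.71 with a pseudocount of 16. The single late pachytene array had -3.10, the single early pachytene array -1.42, and the round spermatid arrays -2.86 to -1.90. The arrays of the 2 fractions did not overlap, and mid-pachytene array 2 lay nearer to the diplotene arrays than mid-pachytene array 1 did.

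**Figure D3:**
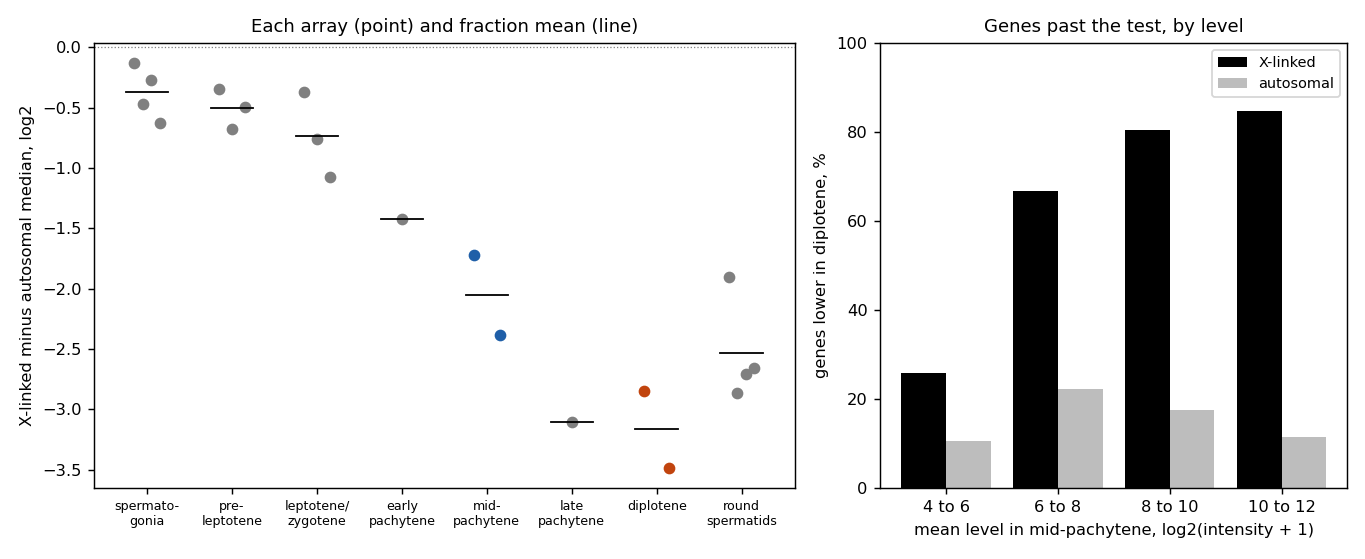
On the left, the X-linked minus the autosomal median level (log2) in each wild-type array, from spermatogonia to round spermatids, with diplotene in orange and mid-pachytene in blue, and a line at each fraction's mean. On the right, the percentage of X-linked (black) and autosomal (grey) genes lower in diplotene, by their mean level in mid-pachytene, which is higher on the X chromosome in each of the 4 level ranges.

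Among single X-linked genes, Dusp9 had the largest fall, given above. Sox3, a SOX factor of spermatogonia, measured 5.86 and 4.46 in diplotene, against 9.94 and 9.83 in mid-pachytene (-4.73 ± 0.77; adjusted p = 0.00049), and Dock11, an exchange factor for a small GTPase, 5.89 and 3.59 in diplotene, against 10.02 and 8.78 in mid-pachytene (-4.66 ± 0.82; adjusted p = 0.00089). The 3 X-linked genes that rose were Samt4, at 4.83 and 6.15 in diplotene, against 3.13 and 3.42 in mid-pachytene, 4933428M09Rik, at 6.09 and 6.08 in diplotene, against 3.35 and 5.25 in mid-pachytene, and 4930402K13Rik, at 4.58 and 4.53 in diplotene, against 3.48 and 3.49 in mid-pachytene. All 3 were higher again in round spermatids, with means of 8.24, 8.77 and 7.46. Their adjusted p were 0.0091, 0.013 and 0.027, and 0.074, 0.23 and 0.12 without mid-pachytene array 1, where none of them passed; without diplotene array 2 they were 0.14, 0.070 and 0.11. Under quantile normalization 8 X-linked genes were higher.

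Several X-linked housekeeping genes have autosomal relatives that are made in spermatocytes, many of them intronless copies, and 12 such pairs were read, chosen after their own values had been seen. Of the 8 X-linked members tested 5 were lower in diplotene (62.5%), a median change of -2.46. The share was 41.5% of all X-linked genes tested, and 66.7% of those at a mean mid-pachytene level of 6 to 8. Of the 11 autosomal members 1 was higher and none lower, a median of 1.06. The higher share was 9.09%, against 7.06% of all autosomal genes tested, of which 13.6% were lower. Cetn2, a centrin of the centriole, measured 6.50 and 5.86 in diplotene, against 10.13 and 8.77 in mid-pachytene (-3.27 ± 0.53; adjusted p = 0.00049), while its autosomal relative Cetn1 measured 13.86 and 14.01 in diplotene, against 12.66 and 13.09 in mid-pachytene (1.06 ± 0.69; adjusted p = 0.30). Pdha1, a subunit of pyruvate dehydrogenase, measured 3.50 and 3.51 in diplotene, against 6.73 and 5.69 in mid-pachytene and was at least 2.21 lower (adjusted p = 0.0027; 0.051 without mid-pachytene array 1), and Pdha2, its testis form, 11.88 and 12.87 in diplotene, against 11.26 and 12.44 in mid-pachytene (0.52 ± 0.77; adjusted p = 0.70).

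Utp14a, a ribosome biogenesis factor, measured 4.33 and 3.82 in diplotene, against 6.49 and 6.11 in mid-pachytene (-2.22 ± 0.37; adjusted p = 0.00061), and Utp14b, its autosomal copy needed for spermatogenesis, 8.39 and 8.33 in diplotene, against 6.82 and 6.98 in mid-pachytene (1.46 ± 0.35; adjusted p = 0.0072; 0.062 without mid-pachytene array 1). This was the pair in which each member passed, in opposite directions. Cstf2, a polyadenylation factor, changed by -3.25 ± 0.48 (adjusted p = 0.00024) and its testis copy Cstf2t by 0.13 ± 0.36 (adjusted p = 0.86). The glycolytic pair Pgk1 and Pgk2 changed by -0.30 ± 0.39 and 1.08 ± 0.76, and neither passed (adjusted p = 0.64 and adjusted p = 0.35).

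Of 28 piRNA pathway and germ granule genes none was higher and 4 were lower (14.3%, against 14.5% of all genes tested), a median of -0.15 (-0.24 under quantile normalization). Tex15, which silences transposons in the germline, measured 9.27 and 9.07 in diplotene, against 11.44 and 11.24 in mid-pachytene (-2.17 ± 0.30; adjusted p = 0.00016), and Mov10l1, the helicase that starts piRNA processing, 10.20 and 10.13 in diplotene, against 11.80 and 12.13 in mid-pachytene (-1.80 ± 0.29; adjusted p = 0.00042). Pnldc1, the exonuclease that trims piRNAs, fell by 1.25 ± 0.40 (adjusted p = 0.036), and Gpat2, a mitochondrial protein of the pathway, by 1.05 ± 0.33 (adjusted p = 0.029). Pnldc1 did not pass without any 1 of the 4 arrays (adjusted p 0.055 to 0.22), Gpat2 not without mid-pachytene array 2 or either diplotene array (0.26, 0.12 and 0.086), and the count was 2 without mid-pachytene array 2 or diplotene array 2. In the list 1 gene was higher without mid-pachytene array 1, mid-pachytene array 2 or diplotene array 2.

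Of 50 germ cell RNA-binding and translation genes none was higher and 17 were lower (34.0%, against 14.5% of all genes tested). The median was -0.35. Cpeb1, which controls poly(A) tails, measured 3.63 and 3.21 in diplotene, against 7.17 and 7.71 in mid-pachytene and was at least 3.44 lower (adjusted p = 2.0e-05). Zfp36l2, which binds AU-rich elements, measured 4.43 and 5.94 in diplotene, against 9.04 and 9.14 in mid-pachytene (-3.91 ± 0.65; adjusted p = 0.00056), and Elavl2, a Hu family protein, 5.97 and 5.08 in diplotene, against 9.32 and 9.0 in mid-pachytene (-3.64 ± 0.54; adjusted p = 0.00027), with 1 of its 3 other probe sets at 0.58. With Lin28a they were the 4 largest falls of the list, and the count was 13 without mid-pachytene array 1 or diplotene array 2.

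Of 42 transcription factor genes of late meiosis and spermatids 2 were higher and 8 were lower (4.76% and 19%, against 6.98% and 14.5% of all genes tested), while the median change was 0.38, or 0.23 with genes below background at their bound. The falls were led by subunits of TFIID and their paralogues. Taf9b, X-linked, measured 5.85 and 4.34 in diplotene, against 9.51 and 8.18 in mid-pachytene (-3.75 ± 0.60; adjusted p = 0.00044), Taf7l, X-linked, 7.82 and 6.49 in diplotene, against 11.09 and 10.15 in mid-pachytene (-3.47 ± 0.49; adjusted p = 0.00017), and Taf4b, autosomal, 7.35 and 5.85 in diplotene, against 9.94 and 9.08 in mid-pachytene (-2.91 ± 0.82; adjusted p = 0.018). Ovol1, a zinc finger factor of pachytene progression, rose by 1.52 ± 0.29 (adjusted p = 0.0017), and Zscan21, a zinc finger factor of meiotic cells, by 1.03 ± 0.28 (adjusted p = 0.016; 0.056 to 0.080 without 1 array, where it did not pass). Crem, the activator of spermatid genes, measured 10.87 and 11.89 in diplotene, against 9.43 and 10.67 in mid-pachytene (1.33 ± 0.84; adjusted p = 0.29), and Brdt, the testis bromodomain protein, 11.57 and 11.80 in diplotene, against 10.75 and 10.87 in mid-pachytene (0.88 ± 0.45; adjusted p = 0.19). Neither passed. The arrays of the 2 fractions did not overlap for either gene, as for 60.2% of all genes tested. The counts higher and lower were 1 and 2 without mid-pachytene array 1, 1 and 8 without mid-pachytene array 2, 1 and 5 without diplotene array 1, and 1 and 4 without diplotene array 2, and Taf4b then had adjusted p of 0.14 without mid-pachytene array 1 and 0.19 without diplotene array 2.

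Of 77 axoneme and motile cilia genes 9 were higher (11.7%, against 6.98% of all genes) and none was lower. The median change was 0.93, and 73 of the 77 lay above 0. Dnal1, a light chain of outer arm dynein, measured 8.97 and 9.59 in diplotene, against 7.06 and 8.09 in mid-pachytene (1.71 ± 0.52; adjusted p = 0.028). Rsph6a, of the radial spoke, measured 11.51 and 11.28 in diplotene, against 9.37 and 9.52 in mid-pachytene (1.95 ± 0.67; adjusted p = 0.048), and Cfap157, a protein of the flagellar base, 7.77 and 7.87 in diplotene, against 5.58 and 6.62 in mid-pachytene (1.72 ± 0.57; adjusted p = 0.041). In all 3 every diplotene array lay above every mid-pachytene array, as the arrays did not overlap for 2810 of the 2812 genes that passed. The calls were not firm: 2 were left without mid-pachytene array 1, 4 without mid-pachytene array 2, 3 without diplotene array 1 and 2 without diplotene array 2. The count was 4 with no filter, 3 with array weights and 16 with a pseudocount of 16. Rsph6a passed in none of the 4 fits that left out an array (adjusted p 0.11 to 0.19), Cfap157 had 0.31 without mid-pachytene array 1, 0.10 without diplotene array 1 and 0.16 without diplotene array 2, and Dnal1 0.26 without mid-pachytene array 1 and 0.19 without diplotene array 2.

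Of 57 acrosome and egg-binding genes 54 lay above 0, with a median of 0.74, but only Rnase10 passed. That is 1.75% higher, against 6.98% of all genes tested. The count without an array was 0, 2, 3 or 0, in the order mid-pachytene 1 and 2 and diplotene 1 and 2. Of 67 genes of the sperm tail, sheath and energy supply 53 lay above 0, with a median of 0.56, and none passed in either direction, with 4 at an unadjusted limma p below 0.05, all higher. There were 2 higher without mid-pachytene array 2, 1 under quantile normalization and 4 with the mean of each gene's probe sets, and 0 without any other 1 of the 4 arrays. The 2 largest differences there were Tekt3, a tektin of flagellar doublets, at 10.94 and 11.56 in diplotene, against 8.92 and 9.65 in mid-pachytene (1.97 ± 0.87; adjusted p = 0.12), and Nme8, a thioredoxin-domain protein of the axoneme, at 9.83 and 10.74 in diplotene, against 8.07 and 8.96 in mid-pachytene (1.77 ± 0.91; adjusted p = 0.18). Of all genes tested, 6466 of 13087 lay above 0.

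Of 28 protamines, transition proteins and testis histones 1 was higher and 3 were lower, a median of -0.34. The shares were 3.57% and 10.7%, below the 6.98% and 14.5% of all genes tested. H1f6, the testis linker histone H1t of late spermatocytes, measured 4.95 and 5.34 in diplotene, against 3.55 and 3.83 in mid-pachytene: both mid-pachytene arrays were below background and the gene was at least 1.14 higher (adjusted p = 0.014). It did not pass without mid-pachytene array 1 (0.11) or diplotene array 2 (0.12). H2az2, an H2A.Z variant, measured 10.23 and 9.71 in diplotene, against 12.46 and 11.82 in mid-pachytene (-2.17 ± 0.33; adjusted p = 0.00031). The other falls were Cenpa and Prm2, given above.

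The series concerns acetylated histone marks, and writers, erasers and readers of acetylation were spread over both directions. Of 59 such genes 4 were higher and 13 were lower (6.78% and 22%, against 6.98% and 14.5% of all genes tested). The median was -0.09. Hdac6, an X-linked deacetylase that acts mainly on tubulin, measured 7.93 and 6.22 in diplotene, against 11.48 and 11.33 in mid-pachytene (-4.34 ± 1.05; adjusted p = 0.0074), and Taf1, an X-linked TFIID subunit with bromodomains, 5.86 and 4.60 in diplotene, against 9.31 and 8.81 in mid-pachytene (-3.83 ± 0.65; adjusted p = 0.00065). Hat1, which acetylates new histone H4, measured 8.78 and 8.71 in diplotene, against 11.43 and 11.32 in mid-pachytene (-2.63 ± 0.33; adjusted p = 8.2e-05), and Esco2, which acetylates cohesin, 6.43 and 4.34 in diplotene, against 8.65 and 8.0 in mid-pachytene (-2.94 ± 0.57; adjusted p = 0.0018). Ep300, the p300 acetyltransferase, measured 8.12 and 7.83 in diplotene, against 9.33 and 8.85 in mid-pachytene (-1.12 ± 0.31; adjusted p = 0.016). The 4 that rose were led by the mitochondrial sirtuins Sirt4, by 2.48 ± 0.57 (adjusted p = 0.0054), and Sirt5, by 1.57 ± 0.47 (adjusted p = 0.023). The counts higher and lower were 0 and 5 without mid-pachytene array 1, 2 and 13 without mid-pachytene array 2, 2 and 12 without diplotene array 1, and 0 and 7 without diplotene array 2. Hdac6 had adjusted p of 0.056 and Ep300 of 0.16 without mid-pachytene array 1, and 0.097 and 0.12 without diplotene array 2. Sirt4 had 0.10 and 0.069 in those fits, and Sirt5 passed in none of the 4 (0.079 to 0.10).

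Histone methylation genes had no rise, where 6.98% of all genes tested were higher and 14.5% lower. Of 56 tested 18 were lower (32.1%), a median of -0.56, and 8 were lower without mid-pachytene array 1 and 11 without diplotene array 2. Kdm1b, a demethylase of lysine 4 of histone H3, measured 5.35 and 3.35 in diplotene, against 8.80 and 7.52 in mid-pachytene (-3.81 ± 0.74; adjusted p = 0.0018), and Ehmt1, a partner of the G9a methyltransferase, 5.93 and 4.64 in diplotene, against 9.24 and 8.62 in mid-pachytene (-3.65 ± 0.63; adjusted p = 0.00078). Kdm3b, a demethylase, measured 5.60 and 5.23 in diplotene, against 8.03 and 8.12 in mid-pachytene (-2.66 ± 0.57; adjusted p = 0.0036), and Jarid2, a Polycomb cofactor, 5.96 and 7.18 in diplotene, against 8.77 and 9.79 in mid-pachytene (-2.71 ± 0.64; adjusted p = 0.0060). Jarid2 did not pass without mid-pachytene array 2 (0.058) or diplotene array 1 (0.066), and array 2 was the higher one in both fractions.

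Of 49 replication genes none was higher and 18 were lower (36.7%, against 14.5% of all genes tested). The median was -0.77, or -0.57 with genes below background at their bound and -0.51 under quantile normalization. Mcm4, a partner of Mcm2 in the helicase, measured 6.86 and 4.40 in diplotene, against 10.07 and 9.57 in mid-pachytene (-4.19 ± 0.74; adjusted p = 0.00092). Cdt1, which loads that helicase, measured 7.47 and 5.06 in diplotene, against 11.35 and 10.17 in mid-pachytene (-4.50 ± 1.22; adjusted p = 0.014), and Orc1, of the origin recognition complex, 3.76 and 2.55 in diplotene, against 6.05 and 6.28 in mid-pachytene, at least 2.17 lower (adjusted p = 0.0012). Other probe sets of Cdt1 and Orc1 changed by -4.50 and -0.20. The count was 6 without mid-pachytene array 1 and 7 without diplotene array 2, and Cdt1 had an adjusted p of 0.12 and 0.17 in those fits. The spermatogonial markers, with medians of 5.05 and 4.60 in diplotene, against 8.71 and 8.12 in mid-pachytene, moved the same way as these genes, and their part in the falls was not tested. In spermatogonia Mcm2 averaged 11.91 and Mcm4 12.30, above their mid-pachytene values.

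Of 45 proteasome genes none was higher and 9 were lower (20%, against 14.5% of all genes tested), a median of -0.42. Psmb2, a core subunit, measured 10.19 and 9.45 in diplotene, against 11.63 and 11.14 in mid-pachytene (-1.57 ± 0.28; adjusted p = 0.0011), Psma7, another, 8.30 and 6.85 in diplotene, against 10.47 and 9.22 in mid-pachytene (-2.27 ± 0.48; adjusted p = 0.0030), and Psmb10, a subunit of the immunoproteasome, 6.18 and 4.13 in diplotene, against 8.12 and 6.95 in mid-pachytene (-2.38 ± 0.76; adjusted p = 0.034). The count was 4 without mid-pachytene array 1 or diplotene array 2, and in those fits Psma7 had adjusted p of 0.064 and 0.065 and Psmb10 of 0.26 and 0.36. Of 52 chaperones none was higher and 4 were lower (7.69%, below the 14.5% of all genes tested), a median of 0.14. Hspd1 and Hspe1, the chaperonin and co-chaperonin of mitochondria, which share a promoter, fell together, by 3.57 ± 0.53 (adjusted p = 0.00024) and 3.56 ± 0.64 (adjusted p = 0.00098). Hspa1b, a stress-induced HSP70, measured 5.70 and 5.52 in diplotene, against 8.72 and 7.95 in mid-pachytene (-2.73 ± 0.53; adjusted p = 0.0017).

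Of 33 apoptosis genes and p53 targets 2 were higher and 9 were lower (6.06% and 27.3%, against 6.98% and 14.5% of all genes tested). The median was -0.48 (-0.17 under quantile normalization). The falls held inhibitors as well as effectors of cell death. Xiap, an X-linked inhibitor of caspases, measured 3.49 and 2.82 in diplotene, against 7.17 and 5.83 in mid-pachytene and was at least 2.50 lower (adjusted p = 6.3e-05). Another probe set of Xiap above background changed by -0.65. Ccng1, a p53 target, measured 4.83 and 3.12 in diplotene, against 7.96 and 7.43 in mid-pachytene (-3.72 ± 0.63; adjusted p = 0.00070), Bid, a pro-apoptotic BH3 protein, 6.80 and 5.73 in diplotene, against 8.93 and 8.32 in mid-pachytene (-2.36 ± 0.58; adjusted p = 0.0077), and Cycs, somatic cytochrome c, 9.75 and 7.14 in diplotene, against 11.95 and 10.25 in mid-pachytene (-2.65 ± 0.85; adjusted p = 0.033). Zmat3, a p53-induced RNA-binding protein, rose by 2.28 ± 0.57 (adjusted p = 0.0087), and Bak1, a pore-forming effector, by 1.75 ± 0.28 (adjusted p = 0.00045). The counts higher and lower were 1 and 4 without mid-pachytene array 1 and 1 and 5 without diplotene array 2, with Bid at 0.083 and 0.11, Cycs at 0.30 and 0.40 and Zmat3 at 0.13 and 0.091.

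**Figure D4:**
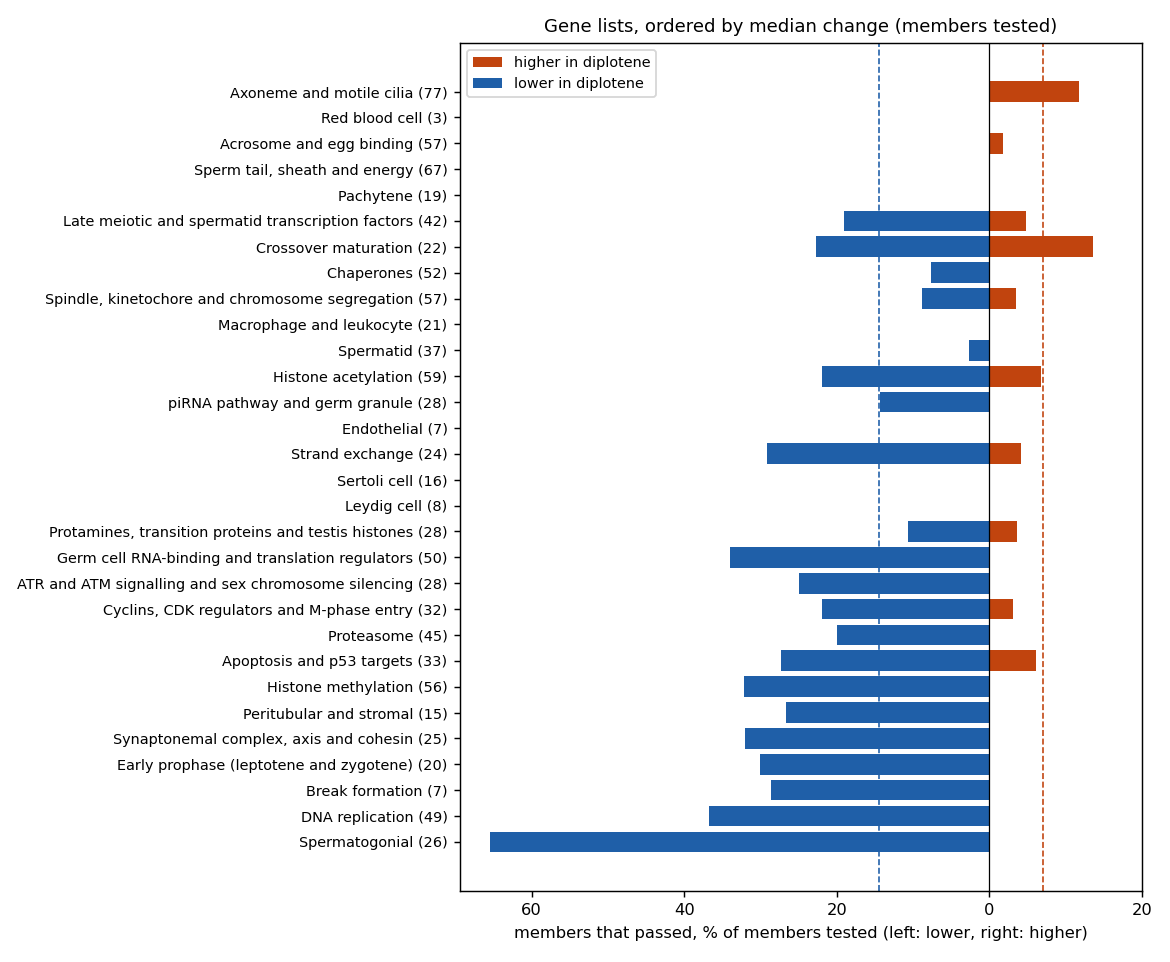
Bars give the percentage of tested members higher (orange, right) and lower (blue, left) in diplotene for the 30 gene lists, with the number of members tested in brackets, ordered from the highest median change at the top to the lowest at the bottom. Dashed lines mark the 6.98% higher and 14.5% lower of all genes tested; the axoneme and crossover lists exceed the first, and the spermatogonial, replication and RNA-binding lists are the furthest past the second.

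In the 13 lists with falls and no rise, few members were higher at an unadjusted limma p below 0.05. They were 3 of 28 in the piRNA list and 2 of 52 chaperones. The signalling (28 tested), RNA-binding (50), histone methylation (56) and replication (49) lists had 1 each, and the other 7 lists had 0. None of the 77 axoneme genes was lower at that level. Of all 13087 genes tested, 1801 were higher and 2659 were lower at that level.

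The single late pachytene array offers a level between the fractions that took no part in the contrast, although it entered the fit as a fraction of its own with no replicate. It lay between the mid-pachytene and diplotene means for 679 of the 913 higher genes and for 1658 of the 1899 lower genes, which were chosen for a wide gap between those means, so that these counts support nothing about late pachytene. The median level of the higher genes was 7.96 and 7.95 in the diplotene arrays, against 6.04 and 6.23 in the mid-pachytene arrays, and was 7.58 in late pachytene. Among the lower genes the medians were 5.86 and 5.05 in the diplotene arrays, against 8.25 and 7.63 in the mid-pachytene arrays, and 6.27 in late pachytene. Thsd7b had already reached 8.27 and H1f6 5.74 in late pachytene, while Trpv1 was at 4.43. Dmc1 and Orc1, at 3.24 and 2.86, were not above background there, and Cenpa was at 8.32.

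Over the longer course, the higher genes had medians of 4.28 to 4.66 in the spermatogonia arrays and 8.03 to 8.25 in the round spermatid arrays, and the lower genes 9.01 to 9.53 in spermatogonia and 4.74 to 5.83 in round spermatids. Cenpa averaged 12.21 and Mcm2 11.91 in spermatogonia, 4.21 and 3.83 in round spermatids. Gdf9 averaged 3.63 in spermatogonia and 8.60 in round spermatids, and Dnaic2 4.31 and 10.82. Of the 12 largest rises 4 had a round spermatid mean below both of their diplotene values, which was 4.92 for Trpv1, 4.87 for Bex6, 5.58 for Smtnl1 and 6.54 for Prdm8.

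**Figure D5:**
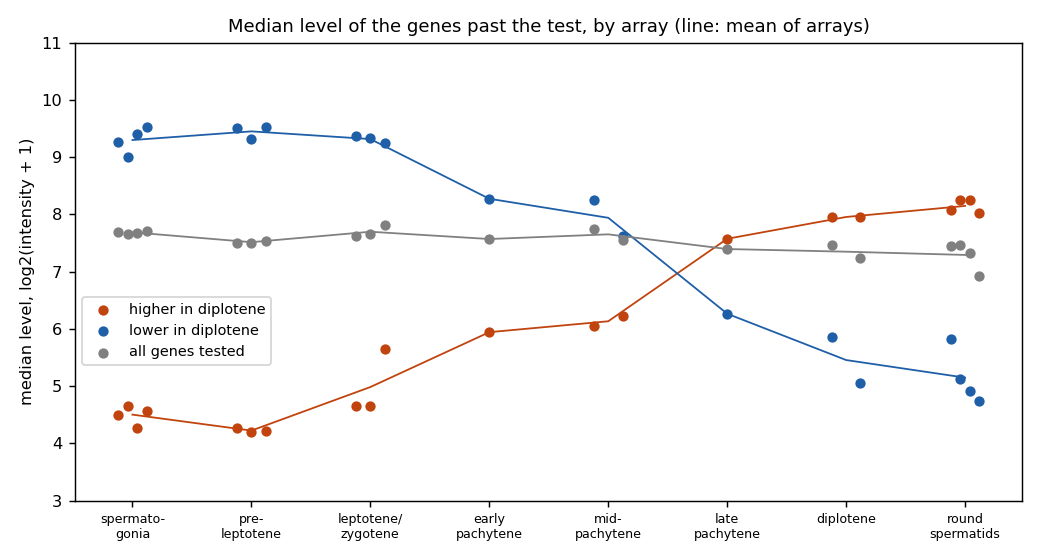
Median level as log2(intensity + 1) of the 913 genes higher in diplotene (orange), the 1899 genes lower in diplotene (blue) and all 13087 genes tested (grey) in each of the 20 wild-type arrays, ordered by stage, with a line through the means. The orange and blue lines cross between mid-pachytene and late pachytene, while the grey line stays between 6.93 and 7.81.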

How the data were processed

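Sorted testis fractions of wild-type mice were hybridised to Affymetrix arrays as biotin-labelled cRNA, per the labels' protocols. The deposited values are probe set intensity on a linear scale, made with GCRMA, per the submitters' processing notes; its version and settings are not given in the sources used here. GCRMA models background from probe sequence and equalises the arrays' distributions, so a level is relative to the RNA hybridised and the lowest levels carry little order. Array number limits the precision: 2 arrays per fraction.

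From these, log2(intensity + 1) was computed for 45037 probe sets. Of these 34945 carried exactly 1 gene symbol in the platform annotation, 932 several and 9160 none, and 34741 were named through the RefSeq table of GRCm38.p6, giving 18193 genes. Each gene was read from its brightest probe set on average across the 20 wild-type arrays, and 13087 genes with a level of at least 4 in at least 2 of those arrays were tested. A mean for each fraction was fitted over the 20 arrays with limma 3.58.1 (lmFit and eBayes, R 4.3.3), with Benjamini-Hochberg adjustment over all genes tested. The fit was tested on simulated data. Where both arrays of a fraction were below 4, the change is given as a bound against 4. Groups came from the array titles.

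The comparison and the 30 gene lists (1154 entries, 1056 on the arrays) were chosen with earlier results of these data known. Named were the 12 largest rises and falls with symbols other than predicted gene names, up to 4 members of each list, 16 genes of meiosis of which 14 were tested, and the 3 X-linked genes at either end. The 12 rises and 12 falls were taken among genes that passed and whose diplotene and mid-pachytene arrays did not overlap. The 12 gene pairs, Utp14b among them, and the members behind small counts of a list (Plk1, Cdc27, Nbn, Mus81, Slx4, Top3a, Ovol1, Zscan21, Sirt4, Sirt5, Zmat3 and Bak1) were chosen after their values were seen. Alternatives to the filter, probe set choice, normalization, pseudocount, variance model and arrays are given at the end. Arrays of Spo11-/- mice were not used here.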

Additional observations from a re-analysis of the deposited data

How the results depend on the processing

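The counts of 913 higher and 1899 lower genes stayed within 1.5 times under no filter, a filter at log2 6 or on the 4 arrays, the mean of probe sets, quantile normalization, median centring, no pseudocount, a pseudocount of 16, trended and robust variances, array weights and no fold minimum (2346 to 2996 genes in all). They did not on the 4 arrays alone (0 genes) or with limma's treat against a log2 change of 1 (603 genes, 90 higher and 513 lower). Without 1 array, 1339 to 2579 genes passed, 434 to 711 higher and 905 to 1868 lower. The titles do not say that a replicate number marks a shared source. The deviations of same-numbered arrays correlated at 0.63 over 13087 genes, a single value since 2 pairs of 2 arrays must share it, and too few pairs to settle the pairing. With the replicate block 3408 genes passed over 18 arrays, and 3943, of which 1582 were higher, on the 4 arrays alone, where 12 of the 36 named genes that had not passed did so. Of 119 named genes that passed, all kept their direction in every alternative run. Passing was kept by 69 without mid-pachytene array 1, by 69 without diplotene array 2, by 102 without mid-pachytene array 2, by 103 without diplotene array 1 and by 64 in all 4 of these fits. Of the 48 with another probe set above background, 45 had each such probe set changed the same way, counted by sign alone. Some of those changes were small, such as -0.04 for Hells, -0.07 for Rad21, -0.20 for Orc1, -0.22 for Brca1, -0.29 for Rec114 and -0.30 for Smc1a. The X-linked minus autosomal difference of -1.11 became -0.15 with no filter, where genes below background enter, and ran from -1.44 to -0.78 without 1 array. Among genes that did not pass, Egfl7 changed sign under quantile normalization (0.070), and these changed sign without 1 array: Egfl7 (-0.55 to 0.065), Tsx (-2.86 to 1.16), Spo11 (-0.64 to 1.32), Prdm9 (-0.0071 to 0.16), Mlh3 (-0.027 to 0.47), Pgk1 (-0.81 to 0.20), Pdha2 (-0.065 to 1.11) and Cstf2t (-0.085 to 0.34). The causes were not tested.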

Other observations

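The 174 X-linked genes that were lower in diplotene had median levels of 5.31 and 4.01 in the diplotene arrays, against 8.06 and 6.95 in the mid-pachytene arrays. In the single early pachytene array their median was 8.04 and in the single late pachytene array 5.39, and in round spermatids it was 4.49 to 5.86. The 1717 autosomal genes that were lower had 5.92 and 5.19 in diplotene, against 8.27 and 7.73 in mid-pachytene, with 6.36 in late pachytene. The late pachytene array was past the midpoint towards diplotene for 162 of the X-linked genes (93.1%) and 1283 of the autosomal genes (74.7%). Of all genes tested, it was past the midpoint for 60.1%. It was at or beyond the diplotene mean for 35 of the X-linked and 188 of the autosomal lower genes. The lower genes were chosen for a wide gap between the mid-pachytene and diplotene means. Their shares therefore support nothing about late pachytene or the X chromosome. Late pachytene has 1 array, so these are values of that array with no replicate check.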
